A study of Mus musculus with 2 samples.

Results

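The Hox clusters and Meis1 were examined in the list of H3K4me1 regions of mouse pre-B cells. Members were the regions overlapping 5 windows of the build mm9, each set around a Hox cluster or the Meis1 gene by its genome position. They numbered 47 of the 48130 regions in the list, with 38 in the 4 Hox windows and 9 in the Meis1 window. The pre-B cells came from bone marrow of C57BL/6 (B6) mice, male and female, 6 to 14 weeks old, that lacked Rag1 (RAG1-/-) and carried a rearranged IgM transgene. One library was precipitated for H3K4me1, the monomethylated form of lysine 4 on histone H3, and 1 input library of the same cells was made without antibody. Both libraries thus shared the Rag1 deficiency and the transgene, so neither represents wild-type pre-B cells, and how many mice stand behind either is not stated in the labels. The H3K4me1 library held 50945360 tags, and for the input the sources used here state no depth. A list of regions gives no expression level, so the labelled cell type could not be checked against marker genes. Since each group was a single library, no value below has a replicate check, and no test was made between loci.

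H3K4me1 is a mark of enhancers and of the flanks of active promoters. Hox genes encode homeodomain transcription factors that pattern the body axis and lie in clusters whose order matches the order of their use. In blood, Hox genes of the A and B clusters act in stem cells and early progenitors, and they are typically turned down as cells mature. Meis1 encodes a homeodomain protein of the TALE class that binds DNA together with Hox and Pbx proteins, and Hoxa9 with Meis1 is a known pair in leukaemia. In the RefSeq gene table of GRCm38.p6, the Hoxb cluster on chromosome 11 runs from Hoxb13 at its lower coordinates to Hoxb1 (10 genes). In the same direction, the Hoxc cluster on chromosome 15 runs from Hoxc13 to Hoxc4 (9 genes) and the Hoxd cluster on chromosome 2 from Hoxd13 to Hoxd1 (9 genes). The Hoxa cluster lies on chromosome 6. That table belongs to another build than the region list. No region was therefore assigned to a single gene, and regions are given by their mm9 positions.

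The Hoxa cluster was the most marked of the 5 loci. Its window of 210 kb (chr6:52050000-52260000) held 14 regions, and they covered 39.7 kb or 18.9% of it. The other 4 windows lay between 2.96% and 5.90%, with no value between 5.90% and 18.9%. In the Hoxb window of 230 kb (chr11:96030000-96260000), 12 regions covered 13.6 kb or 5.90%. The Hoxd window of 150 kb (chr2:74480000-74630000) had 6 regions over 8.37 kb, or 5.58%. Meis1, in a window of 300 kb (chr11:18700000-19000000), had 9 regions over 16.5 kb, or 5.51%. The Hoxc window of 180 kb (chr15:102720000-102900000) also had 6 regions, which covered only 5.33 kb or 2.96%. By covered share Hoxa was thus 3.20 times Hoxb, 3.38 times Hoxd, 3.43 times Meis1 and 6.37 times Hoxc. Hoxb, Hoxd and Meis1 lay within 0.39 percentage points of each other, and their order changed with the window ends and the length minimum. Hoxa stayed first and Hoxc last under each of those settings. The last place of Hoxc was narrow with shortened windows, at 3.70% beside 3.97% for Hoxd. Hoxa alone held 59.3% of the bases covered in the 4 Hox windows. In the map of the 5 windows, most covered bases lie in the middle of the 3 equal parts of the window for Hoxb (83.4%), Hoxc (70.1%) and Hoxa (63.3%), and in the first part for Hoxd (74.4%).

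**Figure D1:**
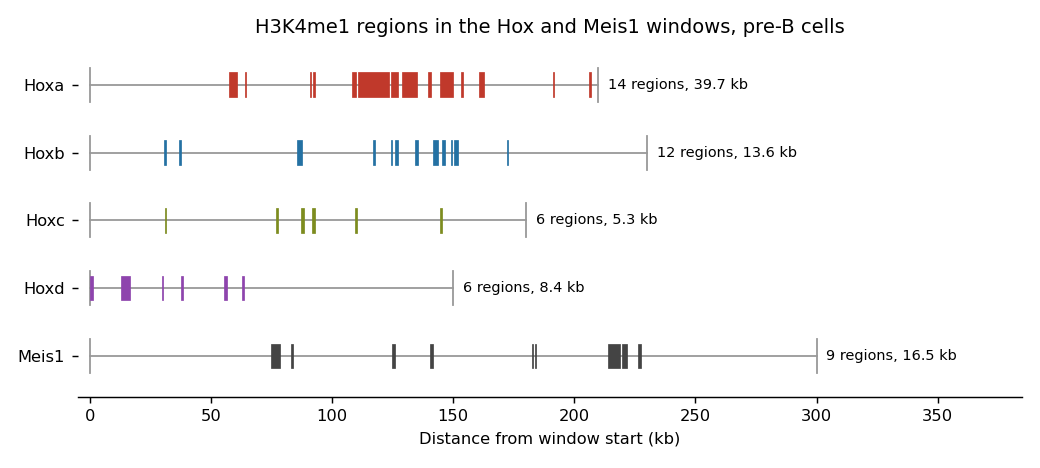
H3K4me1 regions (filled boxes, drawn to scale) along each window (grey line with end bars), by distance from the window start in kb; the numbers at the right give the regions and the kb they cover. Hoxa has a dense group between about 108 and 163 kb from its window start, and the last part of the Hoxd window and both ends of the Meis1 window are empty.

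Set beside the autosomes, Hoxa stood higher in the range than the other loci, which also lay in its upper part. The autosomes were divided into consecutive tiles of each window's length, and their covered bases were counted in the same way. Of 11426 tiles of 210 kb, 6.03% had at least as many covered bases as the Hoxa window. That share was 25.9% of the tiles for Hoxb, 25.6% for Hoxd, 27.8% for Meis1 and 36.2% for Hoxc. All 5 loci lay above the median tile, which was 0.92% covered at 210 kb, and 41.7% of the tiles of that length had no covered base. Among the tiles with at least 1 region, Hoxa still had at least the cover of 89.7%, whereas Hoxc had at least the cover of only 35.5%. These shares describe 1 library. Tiles differ in gene content, which was not matched.

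**Figure D2:**
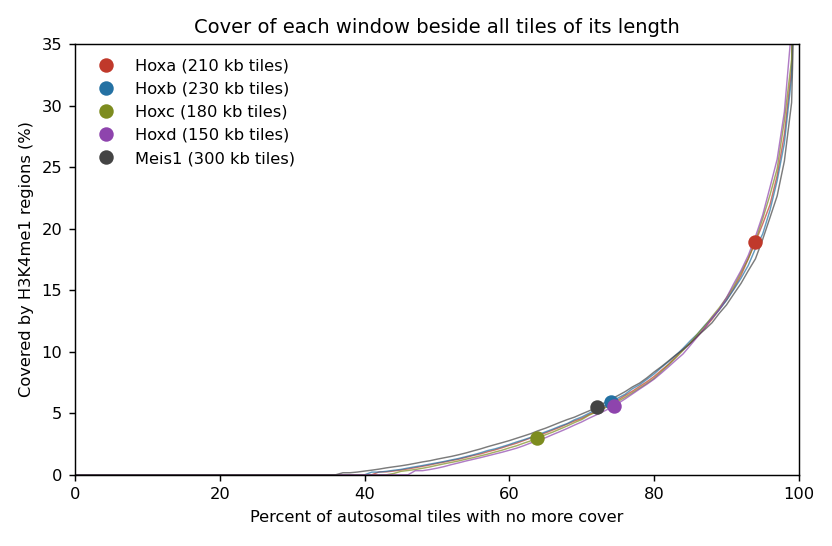
Share of bases covered by H3K4me1 regions (vertical axis, %, shown up to 35%) against the percent of autosomal tiles with no more cover (horizontal axis); each line is the set of tiles of 1 length, and each point is a locus placed among tiles of its own length. Hoxa lies at 18.9%, far up the curve, and Hoxb, Hoxd and Meis1 sit together near 5.5 to 5.9%.

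Within Hoxa, the genes of which include the haematopoietic factors Hoxa9 and Hoxa10, most of the mark lay in 1 group of regions. Stitched over gaps of up to 12.5 kb, 8 of the 14 regions formed a domain of 54.4 kb from chr6:52158187 to 52212551, 59.6% of it covered. This domain held 81.7% of the covered bases of the window. Of the 20379 stitched domains of the whole list, 2.07% had at least its 32.4 kb of covered bases. Near the lower-coordinate end of the domain was a single unbroken region of 12.7 kb (chr6:52160779-52173451), a length reached by 1.17% of all regions. A region of 3008 bases (chr6:52174210-52177217) followed after a gap of 758 bases, and one of 6055 bases (chr6:52179027-52185081) after a further 1.81 kb. Next in length was a region of 5228 bases (chr6:52194695-52199922), which closed this run of long regions. Outside the domain, the first region of the window (chr6:52107431-52110808) was 3378 bases long, and the other 5 were between 501 and 1212 bases. The last of these (chr6:52255892-52257103, 1212 bases) was followed by the next region after 6.21 kb (57.5% of all gaps were at least that long). The 210 kb after the window were 3.26% covered and the 210 kb before it 6.42%, beside 18.9% inside it. A stretch of 76.2 kb without a region preceded the first region of the window, a length reached by 10.2% of gaps. Of that stretch, 57.4 kb lay inside the window.

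Hoxb, whose member Hoxb4 is known for its action on blood stem cells, had nearly as many regions as Hoxa. None of its 12 regions reached 5 kb, but only 8.92% of the whole list did. The Wilson interval for 0 of 12 reaches 24.2%, so a lack of such broad regions in Hoxb was not detectable. The longest Hoxb region had 2291 bases (chr11:96171612-96173902) and the second 2009 bases (chr11:96115709-96117717). The next 3 had 1495 (chr11:96180327-96181821), 1253 (chr11:96164393-96165645) and 1235 bases (chr11:96175340-96176574). The first region (chr11:96060692-96061643) had 952 bases and the last (chr11:96202084-96202584) had 501. A group of 8 short regions lay within 34.9 kb, from chr11:96146921 to 96181821, and held 68.6% of the covered bases. Only 26.7% of that group's span was covered, beside 59.6% for the Hoxa domain with the same number of regions, and 14.2% of all stitched domains had at least its 9.31 kb of covered bases. Between the regions of 795 and 2009 bases lay 48.2 kb without any. Free stretches of 74.6 kb before the first region and 99.8 kb after the last were reached by 10.4% and 7.62% of gaps.

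Hoxc, which includes Hoxc4, a gene active in lymphoid cells, was the least marked. All 6 of its regions were shorter than the median of all regions (1497 bases). By position they were of 706 bases (chr15:102750948-102751653), 637 bases (chr15:102796882-102797518) and 1288 bases (chr15:102807327-102808614). Then followed 1171 bases (chr15:102811668-102812838), 644 bases (chr15:102829638-102830281) and 887 bases (chr15:102864478-102865364). The closest pair stood 3.05 kb apart and the widest gap was 45.2 kb. The locus was bounded by 170.8 kb free of regions before the first region and 127.2 kb after the last (4.37% and 5.99% of gaps were as long). Its largest stitched domain joined 3 of the 6 regions within 16.0 kb and had 3.10 kb of covered bases, 58.1% of those in the window, which 43.2% of domains reached.

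Hoxd, a cluster best known from limb and trunk patterning, of which Hoxd10 is a member, was marked only in the lower-coordinate part of its window. The first region, of 1593 bases (chr2:74479827-74481419), began 174 bases before the window. The second was the longest of the locus, with 3804 bases (chr2:74492814-74496617), and made up 45.4% of the covered bases. It was followed by 2 regions of the shortest length, 501 bases (chr2:74509934-74510434 and chr2:74517800-74518300). Regions of 1233 bases (chr2:74535588-74536820) and 914 bases (chr2:74542821-74543734) came last. The remaining 86.3 kb of the window had no region, and the stretch without one went on to 120.5 kb, a length reached by 6.32% of gaps. Before the first region 61.9 kb were free, which 12.5% of gaps reached. The first 2 regions formed the largest stitched domain, with 5.40 kb of covered bases, and 25.8% of domains had at least as many. In the GRCm38.p6 table the lower-coordinate end of this cluster carries Hoxd13, but which genes lie under the marked part in mm9 was not analysed here.

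Meis1 had 9 regions in a wide surrounding without the mark. The longest, of 5065 bases (chr11:18913757-18918821), was followed by regions of 2106 bases (chr11:18919708-18921813) and 1275 bases (chr11:18926211-18927485). These 3 lay within 13.7 kb and held 51.1% of the covered bases of the window, and 15.9% of stitched domains had at least their 8.45 kb. A second long region, of 3804 bases, stood at the other end of the locus (chr11:18774726-18778529), with one of 773 bases (chr11:18783195-18783967) beside it. Between these ends lay regions of 1190 (chr11:18824711-18825900), 1175 (chr11:18840566-18841740), 501 (chr11:18882364-18882864) and 637 bases (chr11:18883614-18884250). Before the first region, 920.1 kb held none, a distance reached by 0.9% of the 48109 gaps between neighbouring regions. After the last, 353.5 kb held none, which 2.29% of the gaps reached. The 9 regions of the Meis1 window thus stood alone, with none nearer than 353.5 kb on either side.

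Broad regions were counted over all members. Regions of at least 5 kb made up 8.92% of the whole list. They were 3 of 14 in Hoxa (21.4%, Wilson 95% interval 7.57 to 47.6%, counting error only) and 1 of 9 for Meis1 (11.1%, 1.99 to 43.5%). The other 3 windows had 0 of 24, which allows a share of up to 12.5%. That limit is 3 counts over 24, not a Wilson limit, and takes the regions as independent. The interval for Hoxa contains the share of the whole list, so an excess of broad regions was not detectable with 14 regions. The 1 member of at least 10 kb lay in Hoxa, and 2.15% of all regions were that long. Of the 47 members, 7 had the shortest length (14.3% of the whole list did), 2 each in Hoxa, Hoxb and Hoxd and 1 in Meis1. The median member was 1175 bases long beside 1497 bases for all regions, and by locus the median fell from 1388 bases in Hoxa to 1190 in Meis1, 1088 in Hoxb, 1074 in Hoxd and 797 in Hoxc. The plot of lengths shows that these medians differed less than the longest members did. The median gap between neighbours was shortest in Hoxa (3.88 kb) and longest in Hoxc (16.8 kb), beside 8.87 kb in the whole list. It was 5.97 kb in Hoxb, 9.67 kb for Meis1 and 11.4 kb in Hoxd. These medians rest on few gaps, 13 in Hoxa and 5 in Hoxc, and their difference was not tested. Gaps of up to 12.5 kb, 57.7% of all gaps, were 9 of 13 in Hoxa, 8 of 11 in Hoxb, 4 of 8 for Meis1, 3 of 5 in Hoxd and 2 of 5 in Hoxc.

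**Figure D3:**
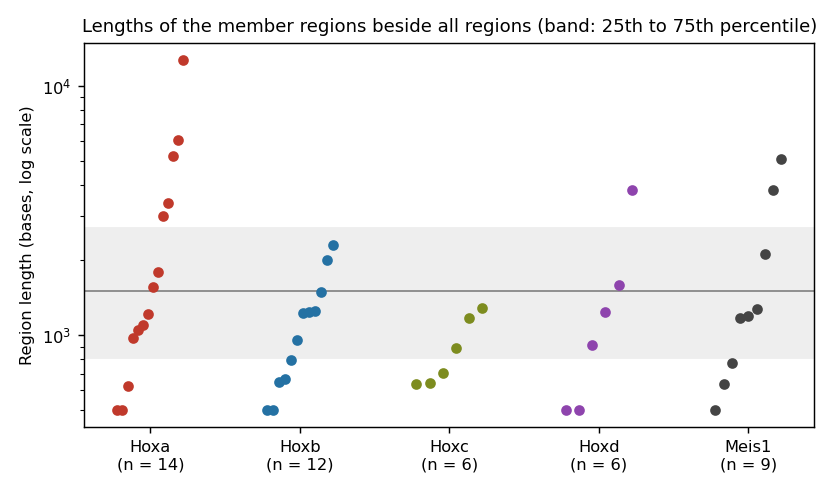
Length in bases (log axis) of each of the 47 regions, 1 point per region, in order of length within each locus; the grey line is the median of all 48130 regions and the band runs from their 25th to their 75th percentile (813 to 2694 bases). Hoxa reaches 12673 bases, Meis1 5065 and Hoxd 3804, while every Hoxb and Hoxc region is below 2694 bases.

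The clusters differed in how they stood against their surroundings. Hoxa was 3.90 times as covered as the flanks of 1 window length on each side (18.9% against 4.84%), and it exceeded 9 of the 10 neighbouring blocks of 210 kb. Hoxd was 5.56 times as covered as its flanks (5.58% against 1.00%) and exceeded all 10 neighbouring blocks, 4 of which had no covered base. The margin over the highest of these blocks, at 5.43%, was small. For Meis1 the flanks had almost no mark, 0.08% beside 5.51%, but 3 of 10 blocks farther out, at higher coordinates, exceeded it. Hoxb was near its flanks (5.90% against 4.37%) and below 9 of its 10 neighbouring blocks, whose median was 9.96%. Hoxc was less covered than its flanks (2.96% against 7.62%, a ratio of 0.389) and than all 7 neighbouring blocks that lay between the first and last regions of chromosome 15. Of the immediate flanks of Hoxb, the one before it was more covered (6.26%) and the one after it less (2.48%). These ratios depended on the width of the flanks. With 3 window lengths on each side, Hoxa came to 2.30, Hoxc to 0.251, Hoxd to 14.3 and Meis1 to 2.68, and Hoxb changed sides, to 0.612. With flanks of 75 kb, the Hoxd ratio was 2.78. Hoxc also changed sides with narrow flanks, since the 90 kb on either side of its window had no covered base.

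**Figure D4:**
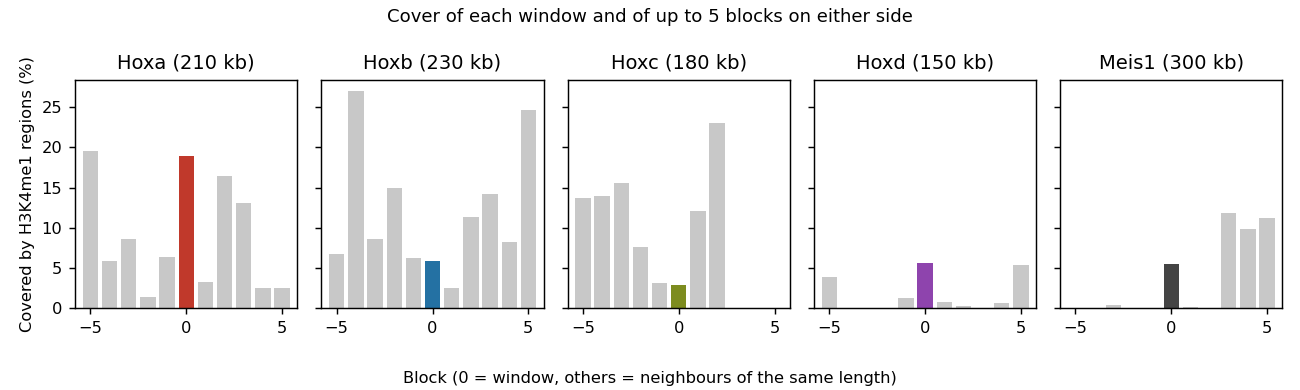
Share of bases covered by H3K4me1 regions (%) in each window (coloured bar, block 0) and in up to 5 neighbouring blocks of the same length on either side (grey bars; the window length is given in each title). Hoxb (5.90%) and Hoxc (2.96%) lie below most of their neighbours. Hoxd (5.58%) lies above all of its own, though only just above the highest (5.43%). For Hoxc only 2 blocks fit between the window and the last region of the chromosome.

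The member genes also differed in the sequence before their starts, a feature that the choice of windows did not use. RefSeq promoters of GRCm38.p6 were at hand for all 6 members and for 22 of the 39 Hox genes. Of each named gene only the outermost start was used. In the 250 bases before it, the CpG dinucleotide occurred 3 times for Hoxa9, 7 for Hoxa10, 8 for Hoxc4, 13 for Meis1, 14 for Hoxb4 and 20 for Hoxd10. The median over all 32851 promoters, with every listed start of 27025 genes kept, was 6. Above it were 5 of the 6 members, and Hoxa9 was below. Of all promoters, 46.3% had at least 7. By cluster the median count was 13 for the 9 Hoxa genes matched, 12 for the 3 Hoxb genes and 12 for the 9 Hoxd genes, and the 1 Hoxc gene matched (Hoxc4) had 8. Counts ran from 3 to 35 among the Hoxa genes and from 2 to 31 among the Hoxd genes. A relation between CpG number and H3K4me1 cover was not tested. The members with the fewest and the most CpG, Hoxa9 and Hoxd10, are shown with Meis1 to make the range among members visible. The sequences run 5′ to 3′ on the gene's strand and end at the base before the start, with each CpG in capitals. Whether an H3K4me1 region lies over them was not analysed here.
Hoxa9: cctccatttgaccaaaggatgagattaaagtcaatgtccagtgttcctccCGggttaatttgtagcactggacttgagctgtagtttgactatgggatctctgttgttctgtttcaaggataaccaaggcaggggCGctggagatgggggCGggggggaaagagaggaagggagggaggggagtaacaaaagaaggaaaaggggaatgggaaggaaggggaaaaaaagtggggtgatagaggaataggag
Hoxd10: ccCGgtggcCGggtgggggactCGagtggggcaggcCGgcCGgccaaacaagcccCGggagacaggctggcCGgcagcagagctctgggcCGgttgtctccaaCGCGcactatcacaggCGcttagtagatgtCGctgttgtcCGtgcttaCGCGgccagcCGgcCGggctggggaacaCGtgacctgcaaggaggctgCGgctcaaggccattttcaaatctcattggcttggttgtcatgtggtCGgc
Meis1: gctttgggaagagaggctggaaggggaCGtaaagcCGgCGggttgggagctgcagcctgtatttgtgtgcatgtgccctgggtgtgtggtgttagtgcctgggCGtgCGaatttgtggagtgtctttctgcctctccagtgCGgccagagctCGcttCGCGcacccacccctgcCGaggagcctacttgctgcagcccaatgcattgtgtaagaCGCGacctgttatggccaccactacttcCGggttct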

How the data were processed

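H3K4me1 and input chromatin of pre-B cells were sequenced, 1 library each. Libraries were made from 1 to 10 ng of DNA with 18 PCR cycles and read as single ends of 100 bases, per the labels' protocols. Bowtie 0.12.9, HOMER 4.7 and mm9 were used, per the submitters' processing notes. Regions were called by HOMER's findPeaks in histone style against input, with peaks of 500 bases, at least 26 tags, 4-fold over input, stitched into regions, per the file headers. The deposited score is 1 for all 48130 regions, so no region could be ranked by signal. Stitching and the tag threshold set region lengths and gaps, and the input entered only through calling.

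Regions were cut at the window ends and covered bases summed. Tiles ran over 19 autosomes from the first to the last region. Wilson intervals are at 95%, and regions of 1 library are not independent. Sums were tested on simulated data. Printed regions were all of a window with up to 10, otherwise the 5 longest, the first and the last. Windows, members and gene lists were chosen with earlier results of these data known. Alternatives covered region length, window ends, tiles and flanks. No mm9 sequence or gene table was used. Promoter sequences are from RefSeq (GRCm38.p6). Of the 50 genes listed for description, 29 had a promoter entry. Computation was in Python 3.11.15 (scipy 1.17.1, numpy 2.4.6, pandas 2.3.3; figures with matplotlib 3.10.9).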

Additional observations from a re-analysis of the deposited data

How the results depend on the processing

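Of 98 values recomputed under alternatives, 64 stayed within a tolerance, 33 moved and 1, the ratio of Hoxb to wider flanks, changed sides. The tolerance was wider for covered bases and region counts than for shares of tiles. Within it, regions of at least 1000 bases took Hoxb from 13568 to 9507 covered bases and Meis1 from 9 to 6 regions. A change from 94.0% to 93.3% of tiles for Hoxa, with longer windows, counted as moved. Hoxa had the highest covered share and Hoxc the lowest as reported, without the shortest regions, with regions of at least 1000 bases, and with windows 10% shorter or longer at either end. With regions of at least 1000 bases, 6 remained in Hoxb, 2 in Hoxc (covering 2459 bases) and 3 in Hoxd. With the window shortened, Hoxd had 4766 covered bases in place of 8372, a share of 3.97% beside 3.70% for Hoxc.

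The percent of tiles with no more cover than the locus moved most with the tiles used. As reported it was 94.0% for Hoxa, 74.1% for Hoxb, 63.8% for Hoxc, 74.5% for Hoxd and 72.2% for Meis1. Tiles with at least 1 region gave 89.7% for Hoxa, 56.4% for Hoxb, 35.5% for Hoxc, 52.3% for Hoxd and 56.2% for Meis1. Tiles of the same chromosome gave 96.3% for Hoxa, 58.4% for Hoxb, 63.7% for Hoxc, 73.3% for Hoxd and 55.2% for Meis1. With those tiles Hoxc was not the lowest, since Hoxb and Meis1 lay below it. Shorter windows gave 95.8% for Hoxa, 78.6% for Hoxb, 68.0% for Hoxc, 70.1% for Hoxd and 76.7% for Meis1. Longer windows gave 93.3% for Hoxa, 70.4% for Hoxb, 60.4% for Hoxc, 70.7% for Hoxd and 67.7% for Meis1. Regions of at least 1000 bases gave 70.3% for Hoxb, 57.3% for Hoxc and 72.5% for Hoxd, and leaving out the shortest regions gave 73.0% for Hoxd.

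The ratio to flanks of 3 window lengths was 2.30 for Hoxa, 0.612 for Hoxb (1.35 as reported), 0.251 for Hoxc, 14.3 for Hoxd and 2.68 for Meis1 (66.0 as reported, on flanks of almost no cover). The cause was not tested. Flanks of shorter length gave 2.78 for Hoxd and no ratio for Hoxc and Meis1, where they had no covered base; for Hoxc this turns the direction, a case not among the 98 values. No paired analysis was possible because there was 1 library per group. Tags per region were not analysed here, and how far each member lies above the calling threshold is unknown.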

Other observations

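The list is not in order of position, and its order was looked at after seeing the data. Place in the list followed region length closely (Spearman rank correlation -0.97 over 48130 regions of 1 library). The file header does not state by what the rows were sorted, so a place is given as a description only. The Hoxa region of 12.7 kb stood at place 1565, the Meis1 region of 5065 bases at 5848 and the Hoxb region of 2291 bases at 14088. Regions of the same length differed in place. Among the 6870 regions of 501 bases, the Hoxb region chr11:96178977-96179477 came after only 3.25% of them and the Hoxa region chr6:52141014-52141514 after 8.73%. The other 5 members of that length came after 25.1% to 91.3% of them. Both early ones had a neighbouring region within 1 kb, as had the Meis1 region chr11:18882364-18882864, which came after 25.1%. How many of the 6870 regions had such a neighbour was not counted, and a link between neighbour and place was not tested.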
